A study of Mus musculus with 12 samples.

Results

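The level of 4 genes, Inmt, B3galt2, Cys1 and Pnliprp2, differed between the colon of untreated mice with and without swimming. The question was whether the same difference recurred in mice treated to induce colitis-associated cancer. Whether each sequenced mouse carried a tumour is not stated in the sources used here. These 4 genes, of 18514 in the count table, were chosen from the comparison of Ctrl_Swim with Ctrl, so their values in that comparison are given as a description and are not tested. All 4 members passed the filter on low counts, among 15484 genes that did. Only the comparison of Model_Swim with Model rests on mice that did not choose the genes, and only there is a test given.

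The RNA-seq data held 12 libraries of mouse colon, in 4 groups of 3 mice. All mice were male C57BL/6 animals, 4 weeks old when obtained. Ctrl mice had neither a carcinogen nor swimming, and Ctrl_Swim mice (labelled 2, 3 and 4) swam daily. Model mice received the carcinogen azoxymethane (AOM) and then repeated cycles of dextran sulfate sodium (DSS) in the drinking water, which injures the colonic epithelium, and Model_Swim mice had the same AOM/DSS course and also swam. Swimming training began before AOM and went on through the experiment, and the non-swimming mice were placed in shallow warm water. Each library was bulk RNA, so fewer cells of a type and less RNA per cell cannot be told apart, and which segment of the colon was sequenced is not stated in the sources used here.

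Inmt encodes indolethylamine N-methyltransferase, which moves a methyl group from S-adenosylmethionine to tryptamine and related small molecules. B3galt2 encodes a beta-1,3-galactosyltransferase of the Golgi that adds galactose to N-acetylglucosamine at the end of glycan chains. Cys1 encodes cystin, a membrane-associated protein of the primary cilium whose loss causes polycystic kidney disease in mice. Pnliprp2 encodes pancreatic lipase-related protein 2, a secreted enzyme that hydrolyses galactolipids, phospholipids and triglycerides and is best known from the acinar cells of the pancreas.

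The members lie on different chromosomes of GRCm38.p6. Inmt (ENSMUSG00000003477) lies on the minus strand at chr6:55170627-55174990, and Cys1 (ENSMUSG00000062563) on the minus strand at chr12:24665833-24681886. Pnliprp2 (ENSMUSG00000025091) lies on the plus strand at chr19:58759723-58777534. B3galt2 (ENSMUSG00000033849) lies on the plus strand at chr1:143640697-143649937, inside the gene Cdc73 on the opposite strand, and exons of both genes share 679 bases. The library kit keeps the strand, but whether the counting used it is not stated in the sources used here. Cdc73, a subunit of a transcription elongation complex, lay between 36.9 and 48.2 CPM in the 12 libraries, with a log2 difference of -0.03 (SE 0.10) between Ctrl_Swim and Ctrl and of 0.12 (SE 0.10) between Model_Swim and Model. None of the 4 members shared a run of 50 bases with another gene's transcripts.

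For each gene 250 bases were searched on both strands for 3 motifs picked after the values were seen. These were the E-box CACGTG, the D-box TTATGTAA and the TATA box TATAAA. The window lay directly before the RefSeq start, except for Cys1. The E-box and D-box were included because Arntl and Npas2, which encode E-box factors, and Nfil3, which encodes a D-box factor, were also lower in Ctrl_Swim. Of 32851 promoters of the same length, 6.02% held the E-box, 0.819% the D-box and 12.4% the TATA box. Inmt and B3galt2 are the 2 members with a match, and their sequences are shown for that reason, with the motif in capitals and credited to RefSeq, GRCm38.p6. Inmt, chr6:55174991-55175240 on the minus strand, held the TATA box at 80 and at 69 bases before its start, and B3galt2, chr1:143640447-143640696 on the plus strand, held the E-box at 26 bases before its start. The windows of Cys1 and Pnliprp2 held none of the 3 motifs. That of Cys1, chr12:24681796-24682045 on the minus strand, lay partly inside the gene span given above.
Inmt: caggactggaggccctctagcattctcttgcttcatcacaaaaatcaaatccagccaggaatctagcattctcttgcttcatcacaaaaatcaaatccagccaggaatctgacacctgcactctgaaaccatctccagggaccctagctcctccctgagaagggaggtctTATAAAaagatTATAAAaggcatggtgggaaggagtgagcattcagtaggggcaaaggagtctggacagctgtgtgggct
B3galt2: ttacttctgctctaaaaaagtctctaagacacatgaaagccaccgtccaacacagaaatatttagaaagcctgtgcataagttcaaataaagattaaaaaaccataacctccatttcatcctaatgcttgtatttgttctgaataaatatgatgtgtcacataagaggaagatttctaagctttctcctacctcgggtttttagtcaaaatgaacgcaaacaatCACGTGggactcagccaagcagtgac

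The libraries had 17256953 to 19451055 counts in genes (median 18293783), so that 3 counts corresponded to 0.153 to 0.172 CPM (a gene's count scaled to a fixed library size, after TMM). The members were counted with 92 to 429 reads for Inmt, 68 to 297 for B3galt2, 58 to 297 for Cys1 and 111 to 9343 for Pnliprp2. The colon markers Epcam, Vil1 and Cdh17 were at 1251 to 1658, 595 to 935 and 625 to 954 CPM over the 12 libraries. Transcripts of pancreatic acinar cells, 26 listed and 19 tested, summed to 55202 CPM in Model 1 and to 26899 CPM in Model 3, against 190 to 492 CPM in the other 10 libraries. The members' differences between Model_Swim and Model and between Model and Ctrl are therefore given with and without these libraries. Gene lists are described over all libraries. P-values measure the spread between mice, with 1 library per mouse.

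Inmt was higher in every swimming mouse of the untreated groups. It measured 5.08, 6.76 and 6.54 CPM in Ctrl 1, 2 and 3 and 17.3, 18.1 and 21.9 CPM in Ctrl_Swim 2, 3 and 4. The groups did not overlap, and the lowest Ctrl_Swim mouse lay far above the highest Ctrl mouse. In the Model group Inmt was at 5.20, 5.72 and 5.57 CPM, and in Model_Swim at 12.9, 8.70 and 5.30 CPM. The Model mice lay within the Ctrl range, while the Model_Swim mice were spread, with replicate 1 between the Model and Ctrl_Swim levels and replicate 3 inside the Model range. Scaled to transcript length, the mean was 5.65 ± 0.897 FPKM in Ctrl, 19.3 ± 3.39 in Ctrl_Swim, 5.48 ± 0.319 in Model and 8.85 ± 3.72 in Model_Swim (SD, n = 3).

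B3galt2 was also higher in Ctrl_Swim than in Ctrl, and it was high in most AOM/DSS mice without swimming. Ctrl mice measured 3.75, 5.997 and 4.01 CPM and Ctrl_Swim mice 16.3, 13.7 and 10.02 CPM, with no overlap. Model mice measured 11.5, 6.59 and 14.5 CPM and Model_Swim mice 13.2, 9.57 and 12.99 CPM. All 3 Model mice lay above all 3 Ctrl mice, and the Model and Model_Swim groups overlapped. The lowest Model mouse was Model 2, the Model library with few acinar transcripts. The mean was 0.946 ± 0.265 FPKM in Ctrl, 2.97 ± 0.569 in Ctrl_Swim, 2.41 ± 0.858 in Model and 2.63 ± 0.441 in Model_Swim (SD, n = 3).

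Cys1 was higher with swimming in both settings, from a lower base in the AOM/DSS mice. In the untreated groups it was at 5.74, 7.25 and 5.39 CPM in Ctrl and 16.3, 12.9 and 11.6 CPM in Ctrl_Swim. After AOM/DSS it was at 3.11, 3.38 and 3.903 CPM in Model and 7.32, 6.96 and 4.82 CPM in Model_Swim. In neither pair did the groups overlap, and the Model mice were the lowest of all 12. The mean was 2.19 ± 0.378 FPKM in Ctrl, 5.27 ± 0.668 in Ctrl_Swim, 1.34 ± 0.149 in Model and 2.43 ± 0.505 in Model_Swim (SD, n = 3), so the swimming AOM/DSS mice had about the level of untreated mice that did not swim.

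Pnliprp2 was the member that was lower in Ctrl_Swim. Ctrl mice measured 236, 103 and 95.7 CPM and Ctrl_Swim mice 7.73, 6.28 and 5.67 CPM, with a wide gap between the groups. Model mice measured 501, 24.7 and 189 CPM and Model_Swim mice 38.1, 41.7 and 26.03 CPM. The Model mice were far apart: Model 1 and Model 3, rich in acinar transcripts, lay above every Model_Swim mouse, and Model 2 lay below all of them. Every Model_Swim mouse lay above every Ctrl_Swim mouse, in a comparison for which the share of all genes without overlap was not computed. The mean was 86.7 ± 46.5 FPKM in Ctrl, 4.28 ± 0.474 in Ctrl_Swim, 153.9 ± 156 in Model and 22.7 ± 5.25 in Model_Swim (SD, n = 3).

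**Figure D1:**
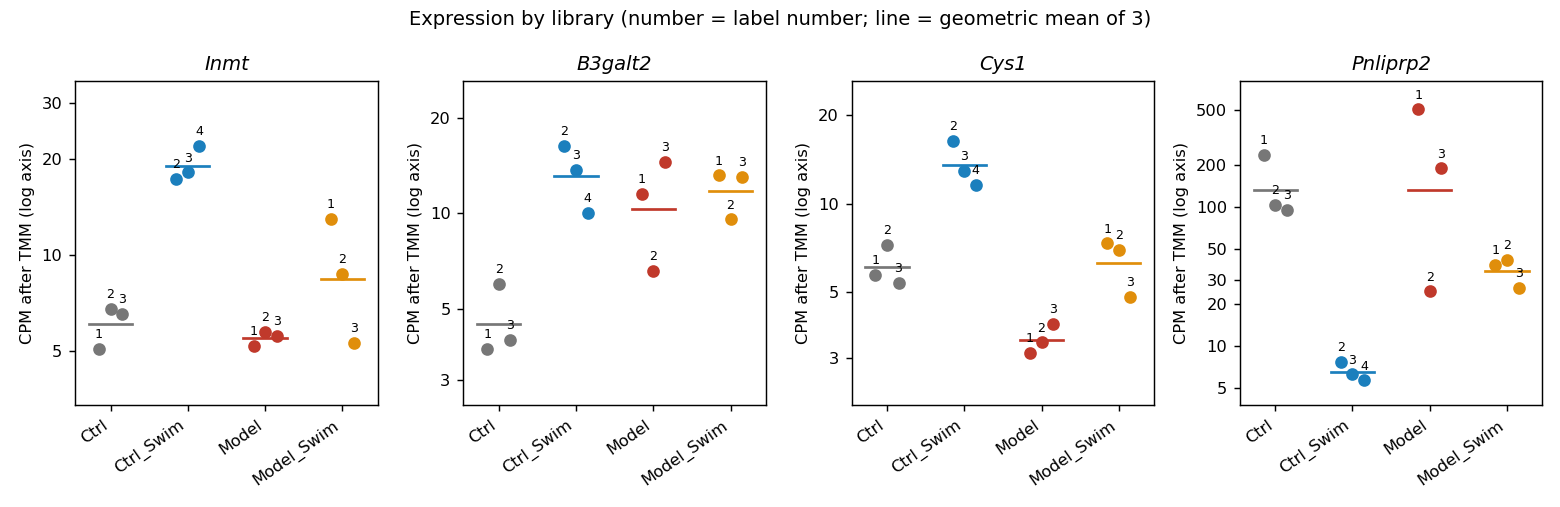
Level of each gene in every library, as CPM after TMM scaling on a log axis, in the groups Ctrl, Ctrl_Swim, Model and Model_Swim. Points carry the mouse's label number and the line is the geometric mean of 3. Ctrl and Ctrl_Swim are apart for all 4 genes, while Model and Model_Swim are apart for Cys1 and overlap for the other 3.

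The comparison that chose the genes gave the following sizes. Ctrl_Swim exceeded Ctrl by 1.64 on the log2 scale for Inmt (SE 0.26, 3.12-fold), by 1.54 for B3galt2 (SE 0.30, 2.90-fold) and by 1.15 for Cys1 (SE 0.20, 2.22-fold). Pnliprp2 had a log2 difference of -4.47 (SE 0.87), a ratio of 0.0453. The call rule, an adjusted p under 0.05 with a fold over 2 or under 0.5, was met by 26 genes (0.168% of those tested), 4 of them higher (0.0258%) and 22 lower (0.142%) in Ctrl_Swim. Among all tested genes, 27.4% did not overlap between Ctrl_Swim and Ctrl. The 26 calls fell to 0 without Ctrl 1, Ctrl 3 or Ctrl_Swim 3, to 1 without Model_Swim 2 and to between 3 and 14 without Ctrl 2, Ctrl_Swim 2, Ctrl_Swim 4, Model_Swim 1 or Model_Swim 3. The fourth called gene that was higher, Cdh19, a cadherin of glial cells, lay closest to the fold limit among the 4 higher genes, at a log2 difference of 1.03 (SE 0.21).

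Whether swimming had the same effect after AOM/DSS was tested in Model_Swim against Model, with edgeR's quasi-likelihood test. All 4 members differed in the same direction as in untreated mice, as 44.5% of all tested genes did. The direction of B3galt2 and of Pnliprp2 depended on which Model libraries were kept. Of the 4 members 0 passed the call rule, which 11 genes (0.071%) passed (6 without Model_Swim 2, 68 without Model 2 and 327 without Model 3). At an unadjusted p under 0.05, 3 of 4 members were counted (Inmt, Cys1 and Pnliprp2), against 13.6% of all genes. With DESeq2, 1 of 4 was called (Pnliprp2), where 115 genes (0.742%) were.

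Cys1 had the most even difference of the 4. It was 0.88 higher in Model_Swim on the log2 scale (SE 0.21, 95% interval 0.42 to 1.33, 1.84-fold), a size reached in either direction by 4.59% of genes. Its adjusted p was 0.140 by edgeR (unadjusted 0.00131), and the exact two-sided permutation p was 0.1, the smallest that 3 against 3 can give. All 3 Model_Swim mice lay above all 3 Model mice, as groups did not overlap for 16.9% of genes. Without Model 3 the difference was 0.98 with an adjusted p of 0.0354 and a fold under the limit of 2. Without both acinar-rich Model libraries it was 0.93 (adjusted p = 0.125), with 1 Model library left, assumed to vary like the other groups.

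Inmt was 0.71 higher on the log2 scale (SE 0.26, 95% interval 0.13 to 1.28, 1.63-fold), a size reached by 6.97% of genes. Its adjusted p was 0.285 by edgeR (unadjusted 0.0207), with an exact permutation p of 0.3. The difference rested on Model_Swim 1: without that library it was 0.34 (adjusted p = 0.623), and without Model_Swim 3 it was 0.96 (adjusted p = 0.242). Without both acinar-rich Model libraries it was 0.66 (adjusted p = 0.396).

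B3galt2 differed by 0.13 on the log2 scale (SE 0.29, 95% interval -0.50 to 0.77, adjusted p = 0.879 by edgeR, exact permutation p = 0.7). A log2 difference above 0 was seen in 48.2% of all genes. Without Model 2 the difference was -0.14 (adjusted p = 0.878), and without both acinar-rich Model libraries it was 0.87 (adjusted p = 0.184), so its direction and size depended on which Model mice were kept.

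Pnliprp2 had a log2 difference of -2.75 (SE 0.78, 95% interval -4.46 to -1.05, a ratio of 0.148), a size reached in either direction by 0.775% of genes. The adjusted p was 0.198 by edgeR (unadjusted 0.00447), and the exact permutation p was 0.4. The direction rested on the acinar-rich libraries: without Model 2 the difference was -3.31 (adjusted p = 0.00793), and without both Model 1 and Model 3 it was 0.53 (adjusted p = 0.584). With the mean level of the acinar list as a covariate it was 1.57 (adjusted p = 0.512). With the same covariate the Pnliprp2 difference between Ctrl_Swim and Ctrl was -3.57, against -4.47 without it.

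**Figure D2:**
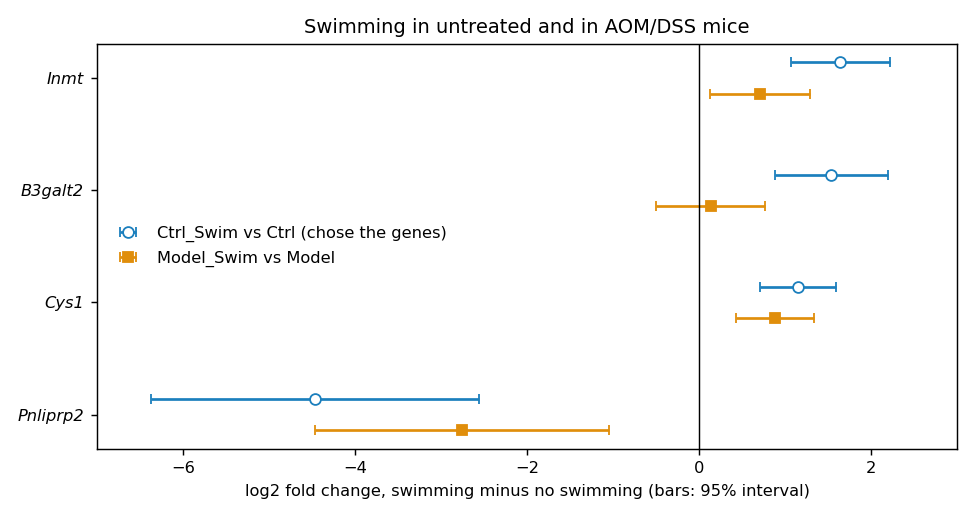
Log2 fold change with swimming for each gene, in untreated mice (Ctrl_Swim minus Ctrl, open circles, the comparison that chose the genes) and in AOM/DSS mice (Model_Swim minus Model, filled squares), with 95% intervals from the fit over 12 libraries. All 4 genes lie on the same side of 0 in both, and the interval for B3galt2 in AOM/DSS mice, -0.50 to 0.77, spans 0.

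The remaining contrasts share mice with the comparison that chose the genes, so they carry no test. Model differed from Ctrl by -0.16 (SE 0.26) for Inmt, 1.24 (SE 0.30) for B3galt2, -0.82 (SE 0.21) for Cys1 and 0.72 (SE 0.72) for Pnliprp2 on the log2 scale. B3galt2 and Cys1 did not overlap between these groups, in opposite directions, as 44.2% of all genes did not, while Inmt and Pnliprp2 overlapped. Without Model 1 and Model 3, B3galt2 was 0.50 and Pnliprp2 -2.57 in this contrast, and Inmt (-0.12) and Cys1 (-0.88) moved little. Model_Swim differed from Ctrl_Swim by -1.09 (SE 0.26) for Inmt, -0.16 (SE 0.29) for B3galt2, -1.09 (SE 0.20) for Cys1 and 2.43 (SE 0.82) for Pnliprp2. The swimming effect in AOM/DSS mice minus that in untreated mice was -0.93 (SE 0.37) for Inmt, -1.40 (SE 0.41) for B3galt2, -0.27 (SE 0.29) for Cys1 and 1.71 (SE 1.08) for Pnliprp2. Genes chosen for a large difference in untreated mice are favoured to show a smaller one elsewhere, so nothing is read from the direction of these values. Without Model 1 and Model 3 they were 4.99 for Pnliprp2 and -0.67 for B3galt2.

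Pnliprp2 did not follow the pancreatic enzyme Pnlip in all groups. Pnlip, the main triglyceride lipase of pancreatic juice, was at 4.58, 5.12 and 5.17 CPM in Ctrl and at 0.164, 3.88 and 0.153 CPM in Ctrl_Swim, where the lowest libraries held 3 counts each. It was at 7142, 8.61 and 3092 CPM in Model and at 0.385, 0.163 and 0.371 CPM in Model_Swim. Ctrl_Swim 3 thus had nearly the Pnlip level of Ctrl mice with a Pnliprp2 level as low as the other Ctrl_Swim mice. This is 1 library, and in it Clps, described below, was also as low as in the other Ctrl_Swim mice (10.4 CPM). On the length-scaled FPKM values, Pnliprp2 over Pnlip was 48.9, 19.01 and 17.6 in Ctrl, 0.0665, 2.72 and 0.0579 in Model and 93.9, 242 and 66.5 in Model_Swim. In Ctrl_Swim the ratio was 44.6, 1.53 and 35.1, with the low value in Ctrl_Swim 3. Pnlip had 7, 3 and 7 counts in Model_Swim 1, 2 and 3 and 3 counts in Ctrl_Swim 2 and 4, so the size of the ratio in those libraries is uncertain. Pnliprp2 was therefore far below Pnlip in the 2 acinar-rich libraries and above it in the other 10.

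Clps, colipase, which anchors pancreatic lipase at fat droplets, was also lower in untreated swimmers. It was at 61.7, 56.9 and 49.9 CPM in Ctrl, 13.1, 10.4 and 9.35 CPM in Ctrl_Swim, 1291, 14.7 and 598 CPM in Model and 18.1, 11.9 and 8.38 CPM in Model_Swim. Clps was lower in every Ctrl_Swim mouse than in every Ctrl mouse, as Pnliprp2 was, and was not among the called genes. The summed acinar list was 206 to 350 CPM in Ctrl_Swim and 410 to 492 CPM in Ctrl. In Ctrl most of this sum was Sycn (mean 228 CPM), Cela1 (111 CPM) and Clps (56.1 CPM), while Pnlip was at 4.96 and Cel at 3.71 CPM. Between Ctrl_Swim and Ctrl, 0 of 19 tested genes were above a log2 difference of 0. Of these, 2 had an unadjusted p under 0.05 (17.6% of all genes) and 1 was called (Bhlha15, a transcription factor of secretory cells). In Model_Swim against Model all 19 were lower with an unadjusted p under 0.05, and 0 were called by edgeR. Over all 13 marker lists, 0 genes were called in that comparison by edgeR, 22 by DESeq2, 12 with no filter, 24 without Model 2 and 22 without Model 3. Cel and Cela2a, defining enzymes of acinar cells, were at 0 CPM in at least 1 library, where the depth allows up to 3 counts, a limit for counting error only. The part of acinar RNA in the Pnliprp2 difference between Ctrl_Swim and Ctrl was not tested.

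**Figure D3:**
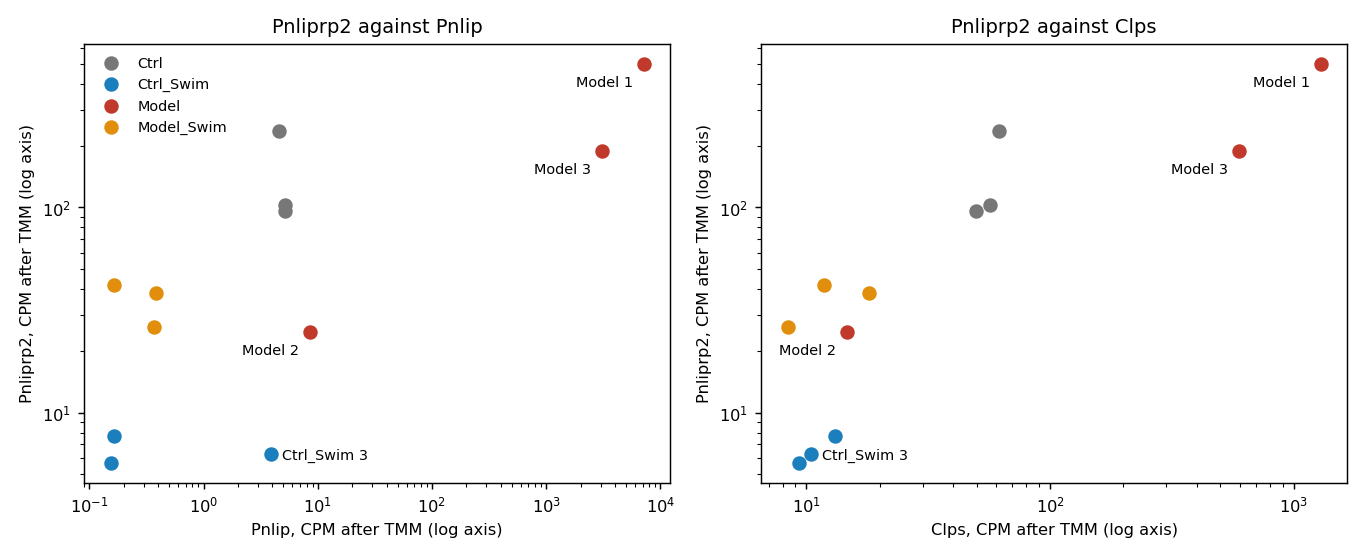
Pnliprp2 against Pnlip (left) and against Clps (right) in the 12 libraries, in CPM after TMM scaling on log axes, coloured by group. Model 1 and Model 3 lie apart at the upper right with Pnlip at 7142 and 3092 CPM, and Ctrl_Swim 3 has Pnlip at 3.88 CPM with Pnliprp2 at 6.28 CPM.

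The other genes of each member's pathway were described from 4 lists. In Ctrl_Swim against Ctrl each list held 1 called gene, which was the member itself. In Model_Swim against Model 0 genes of the 4 lists were called by edgeR, and 7 beside the members by DESeq2, of 11 and 115 called over all genes. Of the small-molecule methyltransferases and the S-adenosylmethionine cycle, 15 of 17 listed genes were tested. In Model_Swim 4 were higher and 3 lower at an unadjusted p under 0.05, a limit met by 13.6% of all genes. The median log2 difference was 0.04, against -0.01 over all genes. The most abundant by CPM were Ahcyl2 (log2 difference 0.44, adjusted p = 0.335 by edgeR), Mat2a (0.04, adjusted p = 0.911), which makes S-adenosylmethionine, Ahcyl1 (-0.02, adjusted p = 0.936) and Ahcy (0.21, adjusted p = 0.404), which breaks down its product. Larger differences than that of Inmt were found in genes of low level, named after their values were seen: Gamt (-2.04, adjusted p = 0.146), Gnmt (-2.95, adjusted p = 0.202) and Mat1a, with a mean of 3.36 CPM in Model and 0.0360 CPM in Model_Swim, the latter under 3 counts.

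Of the galactosyltransferases and related enzymes, 23 of 24 were tested, with 0 higher and 1 lower at an unadjusted p under 0.05 in Model_Swim (13.6% of all genes). B3galt5, the beta-1,3-galactosyltransferase with the most reads, was at a mean of 395 CPM in Ctrl and 340 CPM in Ctrl_Swim, and its difference between Model_Swim and Model was -0.24 (adjusted p = 0.371 by edgeR). Between Ctrl_Swim and Ctrl, where B3galt2 was higher, B3galt5 had a log2 difference of -0.21 (SE 0.11, adjusted p = 0.329 by edgeR). Of the primary cilium genes all 41 were tested, with a median log2 difference of 0.14 in Ctrl_Swim and -0.11 in Model_Swim. In Ctrl_Swim 31 of 41 were above 0, with 7 higher, Cys1 among them, and 1 lower at an unadjusted p under 0.05 (17.6% of all genes). In Model_Swim 10 of 41 were above 0 (48.2% of all genes), with 1 higher and 4 lower at that limit (13.6% of all genes). The 1 higher in Model_Swim was Cys1. The polycystin genes Pkd1 and Pkd2 differed by -0.07 (adjusted p = 0.858) and -0.10 (adjusted p = 0.561) by edgeR. Of the lipases 17 of 19 were tested, with 1 higher and 5 lower at an unadjusted p under 0.05 in Model_Swim, and the most abundant by mean CPM over the 12 libraries were the pancreatic genes Pnlip, Cel, Pnliprp1 and Clps, a rank carried by Model 1 and Model 3. In the other 10 libraries Pnlip was at 0.153 to 8.61 CPM, while Pnpla2, the lipase of fat stores inside cells, was at 129 to 189 CPM over all 12. Pnliprp1, a paralog of Pnliprp2, was at 3.92, 3.82 and 3.85 CPM in Ctrl, 0.493, 2.07 and 0.664 CPM in Ctrl_Swim, 2017, 6.16 and 1206 CPM in Model and 17.1, 21.3 and 15.8 CPM in Model_Swim.

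Markers of other cell types moved in the same comparisons as the members. In Ctrl_Swim against Ctrl, the summed goblet cell list was 14237 to 18465 CPM against 38856 to 49555 CPM, with 2 of 7 genes called lower (Clca1 and Spink4) and 6 of 7 at an unadjusted p under 0.05, against 17.6% of all genes. The enteric neuron list summed to 253 to 313 CPM against 179 to 213 CPM, with 11 of 12 genes above 0 and 7 at an unadjusted p under 0.05, and the endothelial list to 365 to 469 CPM against 316 to 330 CPM, with 7 of 7 above 0 and 6 at an unadjusted p under 0.05, and in both 0 were called by edgeR. The squamous epithelium list was above 0 in 11 of 11 genes, with 9 at an unadjusted p under 0.05, 0 called and a median log2 difference of 5.05. It summed to 86.8, 5.48 and 780 CPM in Ctrl_Swim 2, 3 and 4 against 6.49 to 9.94 CPM in Ctrl, so that difference was carried by Ctrl_Swim 2 and 4. Ctrl_Swim 3, without squamous transcripts above the Ctrl level, had Inmt at 18.1, B3galt2 at 13.7, Cys1 at 12.9 and Pnliprp2 at 6.28 CPM. This is 1 library, and the part of squamous tissue in the members' differences was not tested. The B cell list was above 0 in 9 of 9 genes, with 1 at an unadjusted p under 0.05. It summed to 57.04, 75.9 and 183 CPM in Ctrl_Swim 2, 3 and 4 against 41.05 to 87.2 CPM in Ctrl, so only Ctrl_Swim 4 lay above the Ctrl range.

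In Model_Swim against Model, the neuron list was above 0 in 12 of 12 genes (191 to 209 against 97.7 to 196 CPM) and the endothelial list in 2 of 7. The goblet cell list was above 0 in 4 of 7 genes, with a median log2 difference of 0.01 and 0 at an unadjusted p under 0.05. Its sums overlapped (17466 to 31455 against 14696.5 to 34878 CPM), unlike those in Ctrl_Swim against Ctrl. Colonocyte genes summed to 18163 to 18792 CPM against 8975 to 15832 CPM, fibroblast genes to 2392 to 2990 against 3076 to 3217 CPM and B cell genes to 56.9 to 90.1 against 167 to 198 CPM, in each case without overlap. At an unadjusted p under 0.05 (13.6% of all genes), 4 of 10 colonocyte genes were higher, and 3 of 12 fibroblast and 9 of 9 B cell genes lower. Much of the colonocyte difference was Car1, at a mean of 1806 CPM in Model and 6085 CPM in Model_Swim. The squamous list ranged from 135 to 1064 CPM in Model_Swim and from 6.83 to 1946 CPM in Model. The summed smooth muscle, adipocyte, mesothelium, enteric glia and distal Hox lists overlapped between the groups in both swimming comparisons. In these lists 0 genes were called by edgeR, and between 0 and 3 genes each had an unadjusted p under 0.05. The glia sum was mostly Erbb3 (mean 238 CPM), so its overlap says little of the other glia genes. Of the 6 glia genes, 5 were above 0 in both comparisons, with median log2 differences of 0.43 in Ctrl_Swim and 0.59 in Model_Swim. At an unadjusted p under 0.05, 2 were higher in Ctrl_Swim (17.6% of all genes) and 3 in Model_Swim (13.6%). No gene of the goblet, neuron, endothelial, colonocyte, fibroblast or B cell lists was at 0 in any library. The part of these cell types in the members' differences was not tested.

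The 26 genes called between Ctrl_Swim and Ctrl show the setting of the 4 members. In Model_Swim against Model, 22 of the 26 (84.6%) differed in the same direction as in untreated mice, as 44.5% of all tested genes did. The count was 16 without Model 2 and 24 without Model_Swim 1. Of these 26, 10 had an unadjusted p under 0.05 (13.6% of all genes), 5 had groups that did not overlap (16.9% of all genes) and 1 was called (0.071% of all genes). This was Arntl, a core transcription factor of the circadian clock, with a log2 difference of -1.41 (SE 0.18, adjusted p = 0.0134 by edgeR). The 4 higher genes had a median log2 difference of 1.34 in untreated mice and 0.43 in AOM/DSS mice. Cys1 and Inmt had the largest differences of the 4 after AOM/DSS, and Cdh19 was at 0.16 beside B3galt2 at 0.13. Among the lower genes Pnliprp2 had the largest difference in both settings over all 12 libraries. After AOM/DSS its difference of -2.75 turned to 1.57 with the acinar covariate, and its direction also reversed without Model 1 and Model 3. The goblet cell products Itln1 (0.45, SE 0.48), Retnlb (0.18, SE 0.47), Ang4 (0.03, SE 0.54) and Spink4 (0.31, SE 0.24) were the exceptions to the shared direction. They were named after their values were seen, and their adjusted p was 0.615 to 0.989 by edgeR, so an opposite change was not shown. Clca1, also of the goblet cell list, had the shared direction at -0.07 (SE 0.47).

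**Figure D4:**
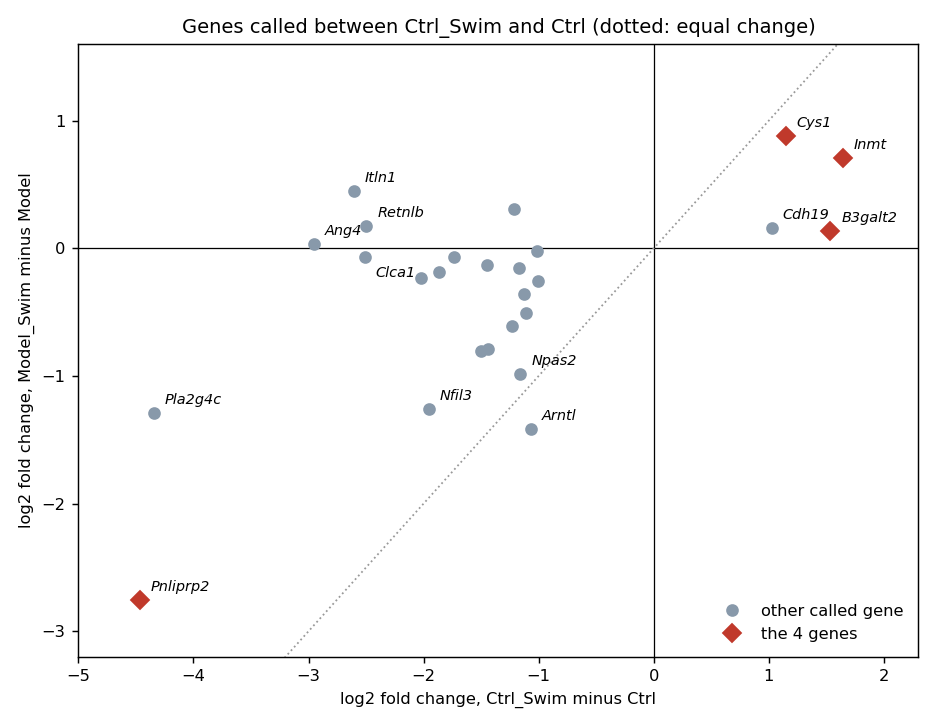
The 26 genes called between Ctrl_Swim and Ctrl, with their log2 fold change in untreated mice on the horizontal axis and in AOM/DSS mice on the vertical axis, and the 4 members as diamonds. Cys1 lies nearest the dotted line of equal change among the members, B3galt2 lies near 0 on the vertical axis, and 22 of 26 genes have the same sign on both axes.

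Across the 12 libraries the 4 members fell into different patterns. Inmt and Cys1 varied together (Pearson r = 0.89 on log2 CPM), Pnliprp2 ran opposite to Inmt (r = -0.82) and to Cys1 (r = -0.75), and B3galt2 was related less to Inmt (r = 0.45), Pnliprp2 (r = -0.40) and Cys1 (r = 0.29). These values describe 12 points that share groups, and the groups were used to choose the genes. Of 14003 genes with a mean of at least 1 CPM, those most like Inmt were Ephx1 (r = 0.93), an epoxide hydrolase, Ntng1 (r = 0.93) and Fhod3 (r = 0.92). Ephx1 had means of 40.3 CPM in Ctrl, 53.8 in Ctrl_Swim, 34.9 in Model and 43.9 in Model_Swim. Most like B3galt2 were Jade2 (r = 0.90), Syt11 (r = 0.89) and Invs (r = 0.89), which encodes inversin, a protein of the primary cilium. Most like Cys1 were Wee1 (r = 0.93), a kinase that holds back mitosis, Diablo (r = 0.93) and Gstm1 (r = 0.93), a glutathione transferase with means of 316 CPM in Ctrl, 385 in Ctrl_Swim, 238 in Model and 311 in Model_Swim. Most like Pnliprp2 were Asns (r = 0.95), asparagine synthetase, Eif2ak3 (r = 0.94), a sensor of unfolded protein in the endoplasmic reticulum, and Edem2 (r = 0.93), which directs misfolded glycoproteins to breakdown. Asns had means of 51.4 CPM in Ctrl, 31.9 in Ctrl_Swim, 50.7 in Model and 44.1 in Model_Swim, a far smaller range than that of Pnliprp2.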

How the data were processed

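Poly(A) RNA of 12 mouse colons was sequenced with a stranded kit. The methods name Trimmomatic for trimming, HISAT2 for alignment to the GRCm38.p6 build, HTSeq-count for gene counts and Cufflinks for FPKM. Tool versions, annotation release and strand setting are not given in the sources used here. The authors deposited raw counts per gene and FPKM values for 18514 genes.

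From the counts, genes were filtered with filterByExpr (minimum count 10), which left 15484, scaled by TMM and fitted over 4 groups with edgeR 4.0.16 (R 4.3.3, quasi-likelihood, SE = log2 fold change over the root of F). Benjamini-Hochberg adjustment ran over all tested genes. A call was an adjusted p under 0.05 with a fold over 2 or under 0.5, the limits of the study. The deposited FPKM values served for levels and, as log2 values with a pseudocount, for an alternative with limma 3.58.1. DESeq2 1.42.0, other scaling and filters, a replicate block, an acinar covariate and leaving out libraries were further alternatives. The script was tested on simulated data.

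The 4 members, the 17 gene lists (4 pathway and 13 marker lists) and the tests were chosen with earlier results of these data known. Named genes were the members, the 3 genes most correlated with each, called genes of each list with up to 4 of its most abundant, and genes called in both swimming comparisons. Sequences came from RefSeq tables of GRCm38.p6, the build of the files, and all 4 members matched. The 50-base check used GENCODE transcripts.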

Additional observations from a re-analysis of the deposited data

How the results depend on the processing

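Of the members' tests in Model_Swim against Model, the direction reversed for Pnliprp2, to 1.57 with the acinar covariate and to 0.53 without both acinar-rich Model libraries (an alternative chosen after seeing the data, which leaves 1 Model library), and for B3galt2, to -0.14 without Model 2. DESeq2 gave Pnliprp2 -2.76 (adjusted p = 0.0366), and so 1 member called. Leaving out 1 library at a time gave 0 to 1 members called, with Inmt at 0.34 to 0.96, B3galt2 at -0.14 to 0.40, Cys1 at 0.76 to 1.03 and Pnliprp2 at -3.31 (without Model 2, called) to -1.59 (without Model 1). B3galt2 was 1.07 with the covariate and 0.87 without both libraries. Adjusted p for Cys1 ranged from 0.0179 (DESeq2) to 0.462 (acinar covariate).

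The comparison that chose the members, Ctrl_Swim against Ctrl, is a description, and its counts below show only how far the choice depended on the processing. All 4 met the call rule by edgeR, 4 by DESeq2, 3 with the covariate, 3 by limma on log2(FPKM + 0.1) and 1 on log2(FPKM + 1), also 1 with no filter. Leaving out 1 library gave 0 to 4, with 0 without Ctrl 1, 2 or 3, Ctrl_Swim 3 or Model_Swim 2, 1 without Ctrl_Swim 2 and 2 without Ctrl_Swim 4, Model_Swim 1 or Model_Swim 3.

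Whether the replicate numbers pair the mice was not settled by the data. Same-numbered Model and Model_Swim mice had correlations of -0.26, 0.41 and 0.17, and 3 of 6 correlated best with their own number. Over all groups, same-numbered mice ranged from -0.26 (Model 1 and Model_Swim 1) to 0.56 (Ctrl_Swim 3 and Model 3). Under the replicate block, Inmt was 0.67, B3galt2 0.14, Cys1 0.86 and Pnliprp2 -2.28, with 0 members called in Model_Swim against Model (3 of 4 at an unadjusted p under 0.05) and 0 in Ctrl_Swim against Ctrl, and the genes called numbered 1 in Ctrl_Swim against Ctrl and 22 in Model_Swim against Model.

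Among all genes, calls in Ctrl_Swim against Ctrl numbered 26 by edgeR, 76 by DESeq2, 52 with only the groups compared, 150 by adjusted p alone, 5, 9 and 2 by limma (pseudocount 1, 0.1, and 1 with no filter), 58 without both acinar-rich libraries, and 0 to 38 with 1 library left out (1878, 1929 and 2182 genes at an unadjusted p under 0.05 where it was 0). Calls in Model_Swim against Model numbered 11 by edgeR, 115 by DESeq2, 34 with no filter, 2 with only the groups compared, 1 with the covariate, 18 by limma with pseudocount 0.1, 214 without both acinar-rich libraries, 6 without Model_Swim 2, 68 without Model 2 and 327 without Model 3. Genes of the 4 pathway lists called in Model_Swim against Model numbered 0 by edgeR, 7 by DESeq2, 2 with no filter and 1 with the covariate, and 0 to 7 with 1 library left out.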
